A study of Mus musculus with 8 samples.

Results

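Cytosolic sensors of foreign or misplaced nucleic acid were described in microglia from mice whose astrocytes lack the tumour suppressor Nf1. The group held 9 genes, chosen by symbol from the 37447 genes of the deposited table: Ddx58, Ifih1, Dhx58, Mavs, Eif2ak2, Zbp1, Tmem173, Aim2 and Ifi204. Each symbol matched 1 row, and all 9 passed the filter on low values, a mean of at least 1 FPKM over the 8 libraries. Microglia were flow sorted from the optic nerve of C57BL/6 mice aged 3 months. FFC mice carried Nf1 flox/flox together with Cre under the GFAP promoter, which is active in astrocytes. FF mice carried Nf1 flox/flox without Cre. Both genotypes thus shared the floxed alleles, and the microglia themselves were not the cells targeted by Cre. Each genotype had 4 libraries (FFC 1 to FFC 4 and FF 1 to FF 4), and replicates 1 and 4 of each were labelled female and 2 and 3 male. The sources used here do not say whether mice were pooled for a library, so p-values measure the spread between these libraries.

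RNA sensors of the RIG-I family are helicases that recognise double-stranded RNA or RNA with unusual ends in the cytosol. Once bound, RIG-I and MDA5 pass the signal to MAVS on mitochondria, which leads to type I interferon. DNA in the cytosol is sensed through STING and through PYHIN proteins such as AIM2, which starts an inflammasome. Most genes of these sensors are themselves induced by interferon, and myeloid cells, microglia included, express them at rest.

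The files give FPKM, fragments per kilobase of transcript scaled to all mapped fragments, a measure per length that lets levels of different genes be compared. Depth per library is unknown. Low FPKM values recur at steps that depend on depth, and their most frequent ratio to those of FF 3 ranged from 0.372 in FF 1 to 1.83 in FF 2, so that 1 fragment weighed most in FF 2. Microglia markers were present in every library, at a summed 4202 to 7326 FPKM in FFC and 1874 (FF 2) to 5667 FPKM in FF over 13 genes, with none at 0. Limma called 0 of these 13 markers, 11 had a higher mean in FFC, like the sensors, and their median log2 difference was 0.57. Without FF 2 and FF 4, 5 of the 13 had a higher mean and the median was -0.03. Their part in the differences of the sensors was not tested. Libraries resembled each other loosely, with pairwise Spearman correlations from 0.375 to 0.659, and the medians were lowest for FF 2 and FF 4 (0.398 and 0.464). Nf1 had 47.7 to 98.3 FPKM in FFC and 25.5 to 65.2 FPKM in FF, which checks no label because the deletion lies in other cells.

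All 9 sensors had a higher mean in FFC microglia, and none passed the test over all genes. The largest differences were those of the 3 helicases: Ifih1, Dhx58 and Ddx58 differed by 2.37, 1.65 and 1.63 on the log2(FPKM + 1) scale, on which the change of low genes is understated. Limma, fitted to the 17753 genes tested, called 0 of the 9 members at an adjusted p of 0.05 and 0% of all genes. At an unadjusted p of 0.05 it listed 3 members, the same 3 helicases, where 4.52% of all genes were listed as higher and 1.94% as lower. That listing depended on the setting. Relative to the mean of the microglia markers none of the 3 was listed (unadjusted limma p of 0.0562 for Ifih1, 0.0995 for Dhx58 and 0.125 for Ddx58). Dhx58 also missed the threshold with a replicate block (0.0640), with month as a term (0.0681), after upper-quartile scaling (0.0507) and on leaving out any library but FFC 3 or FF 1 (up to 0.0907). Without FF 2 and FF 4 both Ifih1 (0.0532) and Dhx58 (0.216) missed it. The median difference of the members was 0.94, against 0.19 for all tested genes and 0.38 for the 10245 genes that averaged 5 FPKM or more. A higher mean in FFC was common, at 56.7% of all tested genes and 64.5% of these more abundant ones.

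**Figure D1:**
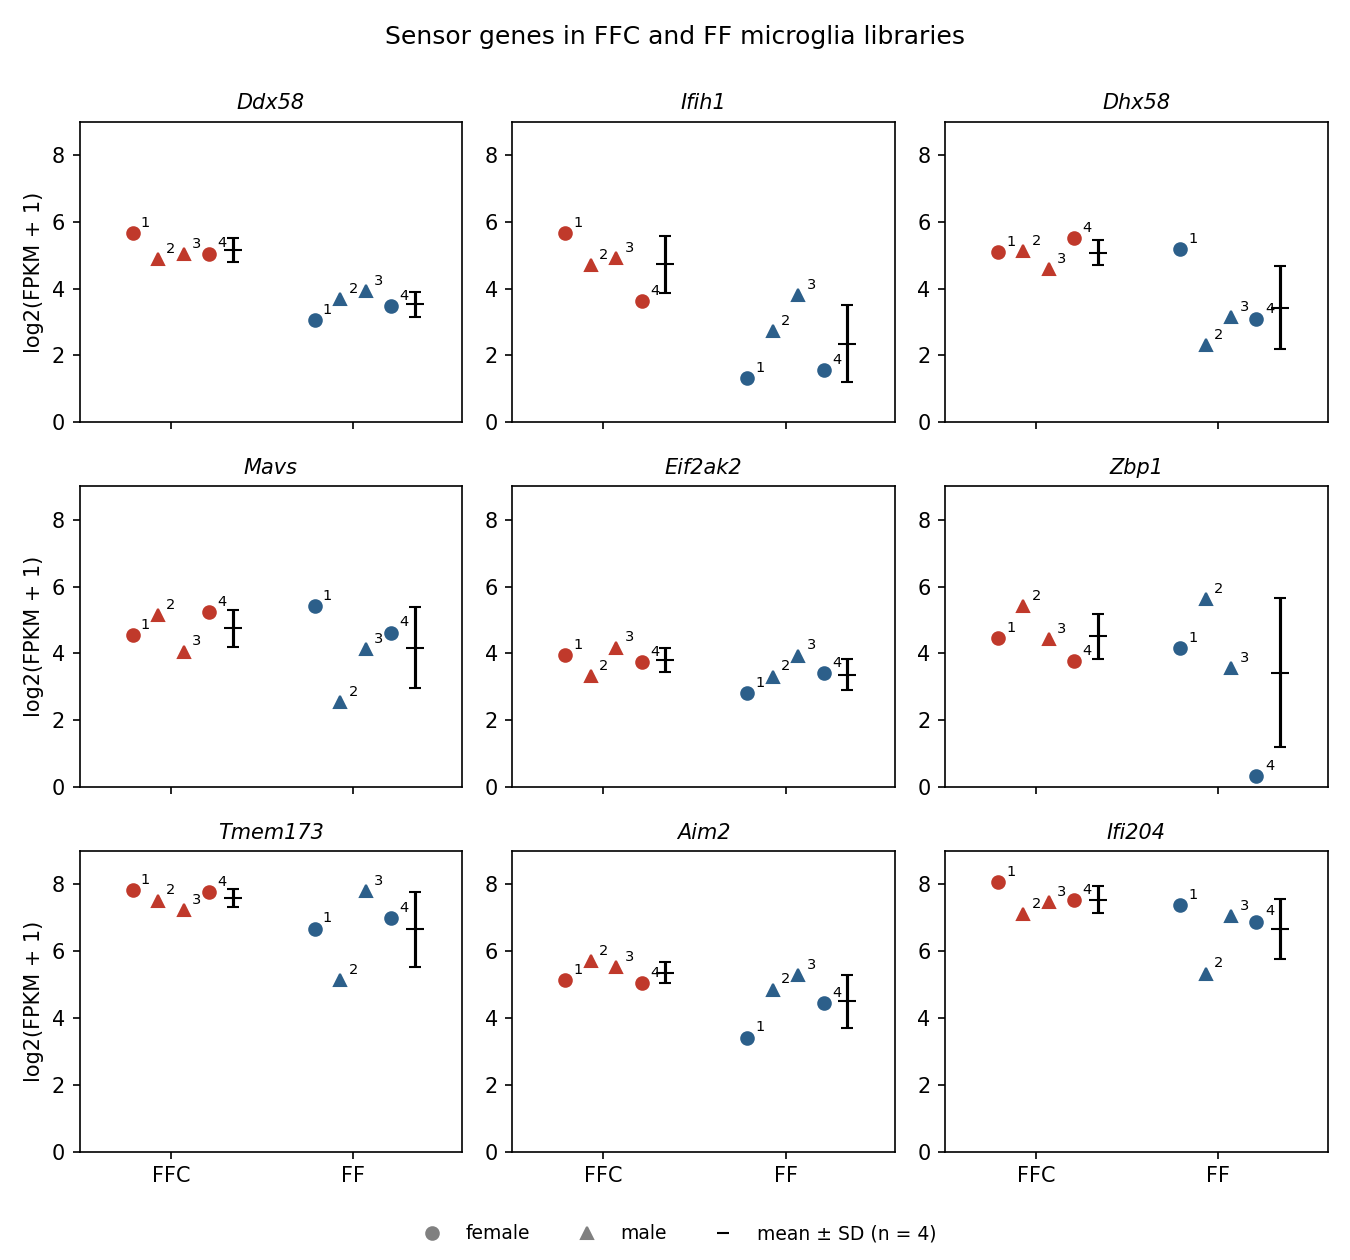
Level of each sensor gene as log2(FPKM + 1) in the FFC and FF libraries (circles female, triangles male, numbers the replicate, bars mean ± SD of 4 libraries). Ddx58 is the 1 gene whose FFC libraries all lie above every FF library, and Zbp1 spans the widest range, down to 0.32 in FF 4.

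Ddx58 (ENSMUSG00000040296, chromosome 4, 40150806 to 40186861 in mm9) encodes RIG-I, which binds short double-stranded RNA with a triphosphate end. It had 49.9, 28.5, 31.9 and 32.0 FPKM in FFC 1 to FFC 4, and 7.26, 11.9, 14.3 and 10.1 FPKM in FF 1 to FF 4. Every FFC library was above every FF library, with 28.5 FPKM as the lowest FFC value and 14.3 FPKM as the highest FF value. This absence of overlap was found for 1 of the 9 members, while 3.05% of all tested genes were higher in FFC without overlap and 1.29% were lower. The 2 genotypes differed by 1.63 ± 0.62 on the log2 scale (SE), at the smallest p that 4 against 4 libraries can give (exact two-sided permutation p = 0.0286) and a limma adjusted p of 0.712. Ddx58 varied little within a genotype, with a coefficient of variation of 27.2% in FFC and 27.1% in FF. Its libraries overlapped once each value was taken relative to the mean of the 13 microglia markers, an alternative added after the data were seen, where the difference was 1.14 (limma adjusted p = 0.800).

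Ifih1 (ENSMUSG00000026896, chromosome 2, 62433855 to 62484312) encodes MDA5, which assembles along long double-stranded RNA. It had 49.9, 25.1, 29.2 and 11.3 FPKM in FFC 1 to FFC 4, and 1.48, 5.60, 13.1 and 1.96 FPKM in FF 1 to FF 4. A single pair of libraries was out of order: FF 3 exceeded FFC 4, and FFC was above FF in 15 of 16 pairs. The log2 difference of 2.37 ± 0.80 (SE) was the largest of the 9, and 2.20% of tested genes had a larger one (exact two-sided permutation p = 0.0571, limma adjusted p = 0.712).

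Dhx58 (ENSMUSG00000017830, chromosome 11, 100556018 to 100565585) encodes LGP2, a relative of both that lacks the signalling domains and tunes their activity. It had 33.2, 33.6, 23.1 and 44.9 FPKM in FFC 1 to FFC 4, and 35.6, 3.93, 7.89 and 7.50 FPKM in FF 1 to FF 4. FF 1 lay among the FFC libraries, while FF 2 to FF 4 were all below 8 FPKM. The log2 difference was 1.65 ± 0.74 (SE; exact two-sided permutation p = 0.114, limma adjusted p = 0.756). Without FF 2 and FF 4, which left FF 1 and FF 3, it was 0.91 (limma adjusted p = 0.816).

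Most of the 9 genes are induced by interferon, and such genes often carry the interferon-stimulated response element around their start sites. The letters there are shown for the genes in which the core of this element was found. RefSeq promoters (GRCm38.p6, a build other than that of the table, 250 bases before to 50 after a start) were matched for Ddx58, Ifih1, Mavs, Eif2ak2 and Aim2, and not for Dhx58, Zbp1, Tmem173 and Ifi204. The element's core was searched as GAAA, any 2 bases and GAAA again, and as TTTC, any 2 bases and TTTC, which is the same core on the other strand. It was found in 3 of these 5 promoters and in 3.44% of all 32851 promoters of the table. The matches are in capitals below, each strand as transcribed, with Ddx58 at chr4:40239776-40240075 (minus strand), Ifih1 at chr2:62646206-62646505 (minus strand) and Eif2ak2 at chr17:78882523-78882822 (minus strand).
Ddx58: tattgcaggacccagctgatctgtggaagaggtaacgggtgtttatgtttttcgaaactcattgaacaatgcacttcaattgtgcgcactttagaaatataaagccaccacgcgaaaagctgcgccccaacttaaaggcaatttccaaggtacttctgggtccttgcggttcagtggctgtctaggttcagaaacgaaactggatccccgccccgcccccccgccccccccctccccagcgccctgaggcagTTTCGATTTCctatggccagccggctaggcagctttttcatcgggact
Ifih1: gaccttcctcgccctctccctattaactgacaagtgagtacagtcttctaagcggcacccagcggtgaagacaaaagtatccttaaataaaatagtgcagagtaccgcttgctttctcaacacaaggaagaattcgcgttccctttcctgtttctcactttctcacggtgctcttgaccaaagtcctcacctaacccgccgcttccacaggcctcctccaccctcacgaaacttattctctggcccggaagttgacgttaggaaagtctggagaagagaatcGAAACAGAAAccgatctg
Eif2ak2: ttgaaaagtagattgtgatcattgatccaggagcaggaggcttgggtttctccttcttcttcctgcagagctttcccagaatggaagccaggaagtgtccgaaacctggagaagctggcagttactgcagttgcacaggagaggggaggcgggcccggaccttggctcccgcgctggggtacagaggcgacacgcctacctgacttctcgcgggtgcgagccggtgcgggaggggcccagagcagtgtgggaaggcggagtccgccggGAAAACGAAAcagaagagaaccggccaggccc
In all 3 the match lay just downstream of the annotated start, beginning 2 bases after it in Ddx58 (TTTCGATTTC, the core on the other strand), 32 bases after it in Ifih1 (GAAACAGAAA) and 18 bases after it in Eif2ak2 (GAAAACGAAA). The core was not in the windows of Mavs or Aim2. Among the genes with a match, Ifih1 had the largest log2 difference of the 9, and Eif2ak2 the smallest.

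Mavs (ENSMUSG00000037523, chromosome 2, 131059799 to 131073761), the mitochondrial adaptor that both RIG-I and MDA5 signal through, did not separate the genotypes. It had 22.5, 34.5, 15.5 and 36.8 FPKM in FFC 1 to FFC 4, and 41.3, 4.79, 16.5 and 23.6 FPKM in FF 1 to FF 4. FF 1 held the highest and FF 2 the lowest value of all 8 libraries. FFC minus FF was 0.58 ± 0.74 on the log2 scale (SE; exact two-sided permutation p = 0.543, limma adjusted p = 0.83). It was 0.03 without FF 2 alone, -0.017 without FF 2 and FF 4, and 0.99 without FF 1, none of which passed.

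Eif2ak2 (ENSMUSG00000024079, chromosome 17, 79251904 to 79281913) encodes PKR, a kinase that on binding double-stranded RNA phosphorylates eIF2alpha and shuts down translation. It was the least abundant member in FFC and the most even one over the libraries. It had 14.3, 9.01, 17.0 and 12.3 FPKM in FFC 1 to FFC 4, and 6.01, 8.88, 14.2 and 9.59 FPKM in FF 1 to FF 4. The ranges overlapped over most of their length, and the log2 difference of 0.43 ± 0.67 (SE) was the smallest of the 9 (exact two-sided permutation p = 0.200, limma adjusted p = 0.865). Without FF 1 it was 0.25. Scaling to equal upper quartiles gave 0.21 for Eif2ak2, where the median of all tested genes was 0.03 in place of 0.19.

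Zbp1 (ENSMUSG00000027514, chromosome 2, 173032113 to 173044424) encodes a sensor of left-handed Z-form nucleic acid that starts necroptosis through RIPK3. It had 21.1, 41.4, 20.3 and 12.6 FPKM in FFC 1 to FFC 4, and 16.7, 48.1, 10.8 and 0.252 FPKM in FF 1 to FF 4. The FF libraries held both its highest and its lowest value, 191-fold apart, against a 3.30-fold range in FFC. FFC exceeded FF by a log2 of 1.10 ± 1.00 (SE; exact two-sided permutation p = 0.429, limma adjusted p = 0.761). FF 4 decided it: without that library the difference was 0.07, and without FF 2 it was 1.84.

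Tmem173 (ENSMUSG00000024349, chromosome 18, 35893332 to 35900208) encodes STING, the membrane protein that relays cytosolic DNA through the cyclic dinucleotide made by cGAS. It had 226, 182, 150.2 and 219 FPKM in FFC 1 to FFC 4, and 101, 34.4, 222 and 126 FPKM in FF 1 to FF 4. FF 3 was as high as the highest FFC libraries, and the other 3 FF libraries were below all FFC libraries. The log2 difference was 0.94 ± 0.60 (SE; exact two-sided permutation p = 0.143, limma adjusted p = 0.759). It was 0.43 without FF 2 and 0.35 without FF 2 and FF 4.

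Aim2 (ENSMUSG00000037860, chromosome 1, 175281010 to 175396171) encodes the PYHIN protein that binds double-stranded DNA and recruits the adaptor ASC and caspase-1. It had 34.3, 51.4, 45.3 and 32.0 FPKM in FFC 1 to FFC 4, and 9.63, 27.8, 38.0 and 20.7 FPKM in FF 1 to FF 4. FF 3 lay inside the FFC range and the other FF libraries below it. The genotypes differed by a log2 of 0.86 ± 0.64 (SE; exact two-sided permutation p = 0.0857, limma adjusted p = 0.759), and 0.50 without FF 1. In the table its interval overlaps Cadm3 (2.92 FPKM on average), and the use of strand in counting was not given in the sources used here.

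Ifi204 (ENSMUSG00000073489, chromosome 1, 175677424 to 175697050) is another PYHIN gene, a mouse relative of human IFI16, in the same chromosome 1 cluster as Aim2. It had 267, 136, 178 and 183 FPKM in FFC 1 to FFC 4, and 165, 39.3, 131 and 117 FPKM in FF 1 to FF 4. Only FF 1 and FFC 2 were out of order, so that FFC was above FF in 15 of 16 pairs. The log2 difference was 0.88 ± 0.57 (SE; exact two-sided permutation p = 0.0571, limma adjusted p = 0.759), and 0.44 without FF 2. Mouse PYHIN genes resemble each other closely in sequence, and how reads were divided among them is uncertain.

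Levels formed a high pair and 7 lower genes. Tmem173 and Ifi204 averaged 194 ± 35.0 and 191 ± 54.9 FPKM in FFC (SD, n = 4), and 121 ± 77.9 and 113 ± 53.1 FPKM in FF. Their ranges overlapped in both genotypes, and both exceeded Aim2 in each of the 8 libraries. In FF 2, where both were low, Zbp1 was above them at 48.1 FPKM. Below them, Aim2, Ddx58, Dhx58, Ifih1, Mavs, Zbp1 and Eif2ak2 followed in that order in FFC, at means of 40.8, 35.6, 33.7, 28.9, 27.3, 23.8 and 13.2 FPKM. No 2 neighbours among these 7 had separate ranges, although Zbp1 exceeded Eif2ak2 in all 4 FFC libraries. In FF the order was Aim2, Mavs, Zbp1, Dhx58, Ddx58, Eif2ak2 and Ifih1, at 24.0, 21.5, 18.9, 13.7, 10.9, 9.67 and 5.53 FPKM, again with no separate ranges between neighbours. Ifih1 thus stood last in FF and below Eif2ak2 in all 4 FF libraries, and in the middle of the 7 in FFC.

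The 9 genes did not move as a block from library to library. Averaged over the members, log2(FPKM + 1) was 5.60, 5.43, 5.27 and 5.25 in FFC 1 to FFC 4 and 4.37, 3.94, 4.74 and 3.87 in FF 1 to FF 4. FFC 1 was the highest library for 4 members (Ddx58, Ifih1, Tmem173 and Ifi204). FF 1 was the lowest for 4 (Ddx58, Ifih1, Eif2ak2 and Aim2) and FF 2 for another 4 (Dhx58, Mavs, Tmem173 and Ifi204), while each was the highest library of 1 member, FF 1 of Mavs and FF 2 of Zbp1. FF 1 therefore had the highest Mavs and a Dhx58 level like that of FFC, next to the lowest Ddx58 and Ifih1. Summed microglia markers were lowest in FF 2, where Tmem173 and Ifi204 were at 34.4 and 39.3 FPKM. In bulk RNA of sorted cells, fewer cells of a type and less RNA per cell cannot be told apart.

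**Figure D2:**
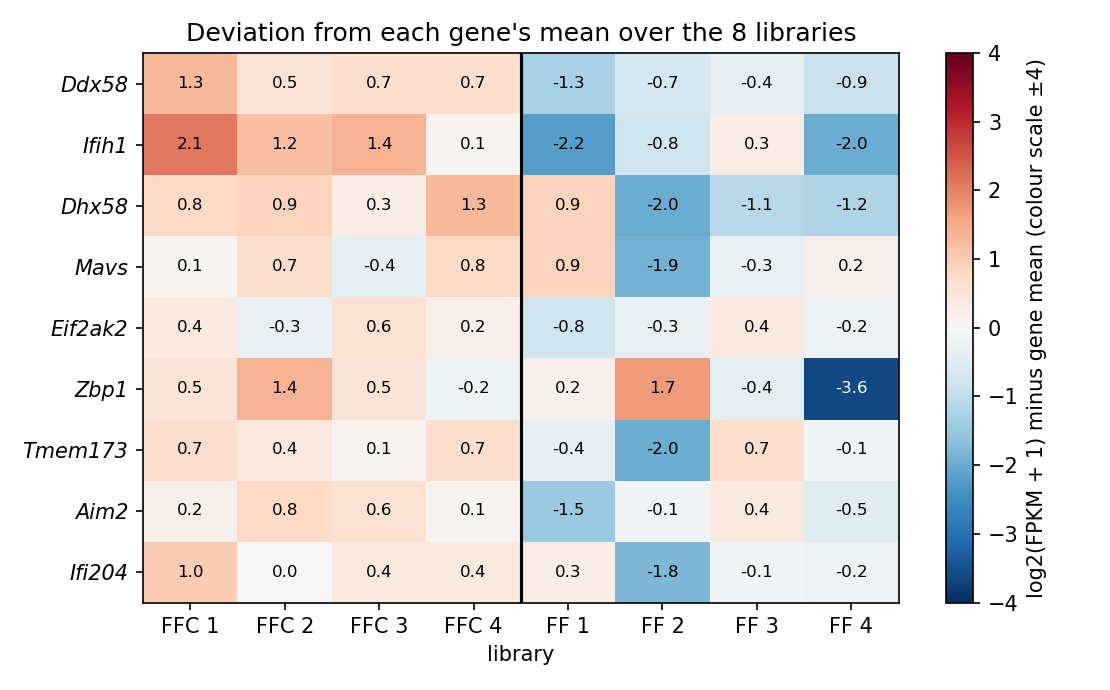
Deviation of log2(FPKM + 1) from each gene's mean over the 8 libraries, FFC left of the black line and FF right of it. The FF columns differ from each other: Ifih1 is lowest in FF 1, Dhx58, Mavs, Tmem173 and Ifi204 in FF 2, and Zbp1 in FF 4.

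Taking each value relative to the mean of the microglia markers in the same library moves the difference of every gene by the same amount and leaves their order as it was. On that scale the median was 0.45 for the members and -0.30 for all tested genes, and 0 of the 9 genes were without overlap (1.12% of all genes were higher without overlap). Ifih1, Dhx58 and Ddx58 then differed by 1.88, 1.16 and 1.14, and Eif2ak2 by -0.059, still above the median of all genes. Leaving out FF 2 and FF 4 gave 1.67 for Ddx58, 2.16 for Ifih1 and 1.01 for Aim2, against 0.35 for Tmem173 and 0.33 for Ifi204. The median was 0.66 in that setting, against 0.07 for all tested genes. Leaving out libraries cannot undo a lack of overlap. Ddx58 therefore had to stay without overlap, and no other member joined it, where 7.21% of all genes were higher without overlap. Leaving out 1 library at a time, it was joined by Ifi204 without FFC 2 (4.69% of all genes), by Ifih1 without FFC 4 (4.5%), by Dhx58 and Ifi204 without FF 1 (6.72%) and by Ifih1, Tmem173 and Aim2 without FF 3 (6.54%).

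**Figure D3:**
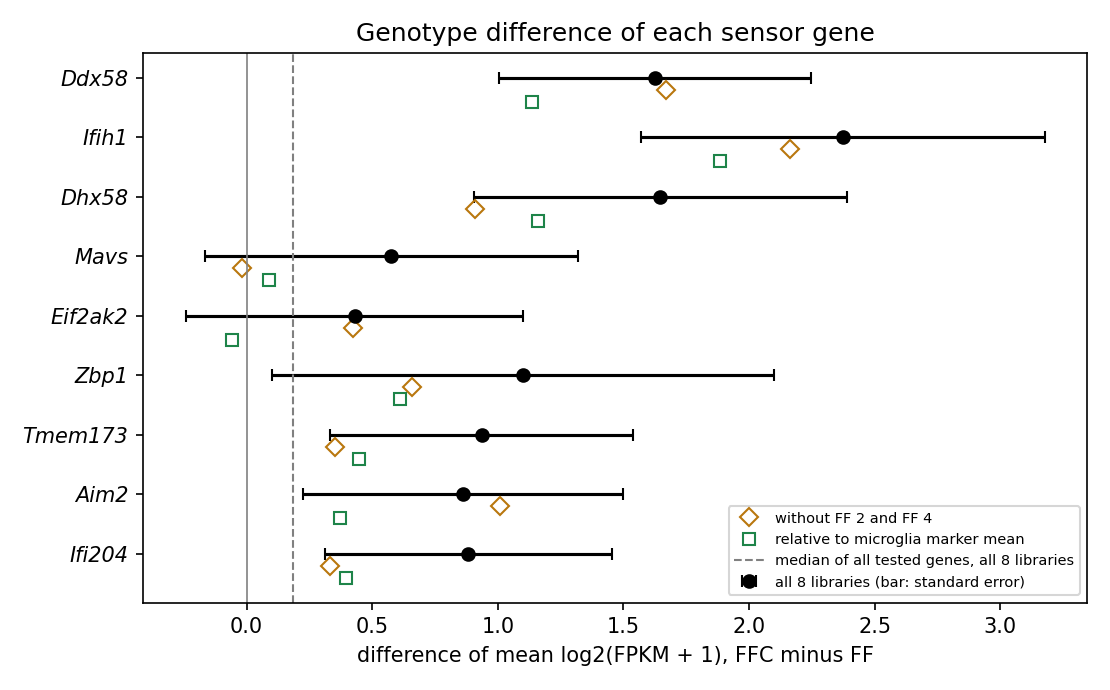
Difference of mean log2(FPKM + 1), FFC minus FF, for each sensor (filled points with standard errors from limma), with the values without FF 2 and FF 4 (diamonds) and relative to the microglia marker mean (squares). Ifih1 lies farthest right at 2.37, and the squares all lie to the left of the filled points by the same amount, as they do for any gene.

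Library titles carry a month, which is partly tied to genotype: November holds FFC 1 and FF 1 to FF 3, December FFC 2 to FFC 4 and FF 4. Within November all 9 members were higher in FFC, with a median difference of 1.28. Within December all 9 were, with a median of 0.99. Each month had a lone library on one side and no test. The share of all genes higher in FFC within a month was not computed, so these counts have no background. The lone December FF library, FF 4, had the lowest summed FPKM of all libraries (367760). Ddx58 differed by 2.12 in November and 1.52 in December, Ifih1 by 3.05 and 2.85, and Dhx58 by 1.55 and 1.99. Zbp1 differed by 0.02 in November and 4.20 in December, where its 1 FF library is FF 4.

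Sex was balanced over the genotypes. Female minus male differences of the members, with genotype as a covariate, ran from -1.57 (Zbp1) to 0.99 (Mavs), and limma called 0 of 9 members and 0% of all genes (at an unadjusted p of 0.05, 0 members and 3.99% of genes). The FFC minus FF difference was above 0 for 8 of 9 members in females, the exception being Mavs at -0.12, and for 9 of 9 in males, with medians of 1.17 and 1.10. The share of all genes above 0 within a sex was likewise not computed. Ifih1 differed by 3.20 in females and 1.54 in males, and Dhx58 by 1.17 and 2.13. The interaction of genotype and sex was called for 0 of 9 members and 0% of all genes (0 members and 3.19% of genes at an unadjusted p of 0.05). With 2 libraries per sex and genotype, none of these differences between the sexes passed the test.

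Around the sensors, 89 of the 94 listed genes found in the table with all values passed the filter on low values, in 5 lists of adaptors and kinases, regulators, other sensors, clearance enzymes and the eIF2alpha pathway. Limma called 0 higher and 0 lower. Of the 89, 66 had a higher mean in FFC (74.2%, against 56.7% of all tested genes and 64.5% of those averaging 5 FPKM or more) and 23 a lower one. Their median difference was 0.57, against 0.19 and 0.38 in the same gene sets. Libraries did not overlap for 6 (6.74%), all higher in FFC, where 3.05% of all tested genes and 3.93% of the more abundant ones were higher without overlap. At an unadjusted p of 0.05 limma listed 6 of the 89 (6.74%), all higher in FFC. Of all tested genes, 4.52% were listed as higher and 1.94% as lower.

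Among adaptors and kinases, 2 of 21 were without overlap, both higher in FFC, as were 3.05% of all tested genes. Pycard, which encodes the inflammasome adaptor ASC that AIM2 recruits, had 82.3, 60.4, 60.9 and 159.6 FPKM in FFC 1 to FFC 4, and 15.5, 8.13, 14.8 and 13.2 FPKM in FF 1 to FF 4. Its lowest FFC value was thus far above its highest FF value, and its log2 difference of 2.64 ± 0.61 (SE; limma adjusted p = 0.496) exceeded that of any of the 9 sensors. Its exact two-sided permutation p of 0.0286 follows from the lack of overlap by which it was named, and tests nothing beyond that. Chuk, the kinase IKKalpha of the NF-kB pathway, averaged 61.8 ± 20.3 FPKM in FFC and 30.0 ± 7.88 FPKM in FF (SD, n = 4 each). The kinases and transcription factors that stand between the sensors and interferon, named here for that role after their values were seen, overlapped. Tbk1, Ikbke, Irf3 and Irf7 differed by -0.07, 1.53, -0.36 and 1.42. Of 20 regulators 0 were without overlap and 18 had a higher mean in FFC, as had 56.7% of all tested genes. Without FF 2 and FF 4, 12 of the 20 had a higher mean, and their median difference was 0.15, where it was 0.73 with all libraries.

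Among the other nucleic acid sensors, 2 of 27 were higher without overlap (3.05% of all tested genes), and the median of 0.22 was close to the 0.19 of all genes. Mnda, a PYHIN gene of the Aim2 cluster, had 73.3, 33.5, 71.9 and 60.7 FPKM in FFC 1 to FFC 4, and 20.1, 3.19, 26.1 and 17.4 FPKM in FF 1 to FF 4. Lrrfip1, which encodes a nucleic acid binding protein, averaged 18.9 ± 7.52 FPKM in FFC and 10.7 ± 1.84 FPKM in FF (SD, n = 4 each). Of the 8 PYHIN genes tested, grouped after their values were seen, none passed the test and the values had both signs: FFC minus FF was 2.01 for Mnda, 1.27 for Ifi205, 1.14 for Pyhin1, 0.88 for Ifi204 and 0.86 for Aim2, and -0.06 for Ifi202b, -0.45 for Mndal and -1.74 for Ifi203. The last had 9.86, 61.0, 10.7 and 39.6 FPKM in FFC 1 to FFC 4, and 294, 33.7, 103 and 36.9 FPKM in FF 1 to FF 4 (limma adjusted p = 0.759). The gene of cGAS, E330016A19Rik in the table and likewise singled out, was at 0.533 to 20.2 FPKM in FFC and at 0.506 to 62.3 FPKM in FF, with 62.3 FPKM in FF 4 and at most 1.16 FPKM in the other FF libraries.

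Against a share of 3.05% of all tested genes that were higher without overlap, 1 of 13 clearance and editing genes was, Ttc37, a part of the cytosolic RNA exosome's helper complex, at 6.12 ± 1.04 FPKM in FFC and 2.39 ± 1.25 FPKM in FF (SD, n = 4 each). Of 8 genes of the eIF2alpha pathway, on which PKR acts, 1 was likewise higher without overlap, the stress transcription factor Atf4, at 57.1 ± 23.6 FPKM in FFC and 20.7 ± 13.3 FPKM in FF. Without FF 2 and FF 4 the medians of the lists of clearance genes and of the eIF2alpha pathway were -0.05 and 0.00, where they were 0.69 and 0.74 with all libraries. The median of the adaptors and kinases was 0.71 without FF 2 and FF 4 and 0.65 with all libraries.

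**Figure D4:**
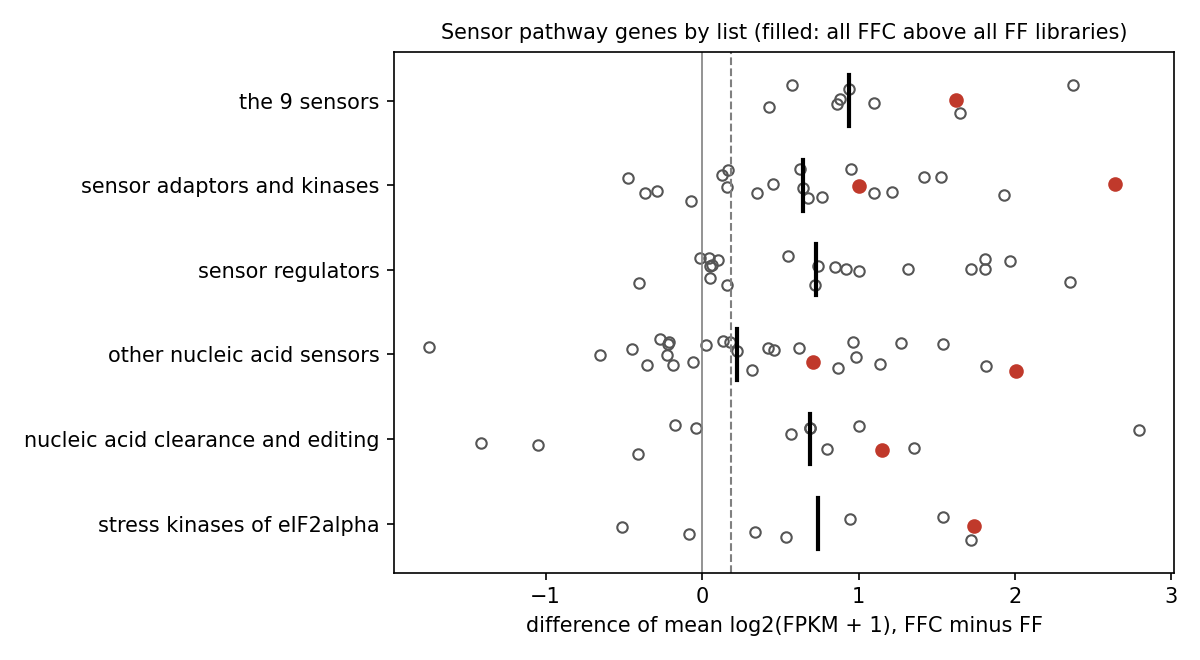
Difference of mean log2(FPKM + 1), FFC minus FF, of the 9 sensors and of the tested genes of each list (1 point a gene, black bars the medians, dashed line the median of all tested genes, filled points genes whose FFC libraries all lie above the FF ones). The medians of the lists lie between 0.22 and 0.74, and Pycard is the filled point at 2.64.

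By the smallest mean distance of centred profiles over the 8 libraries, the gene nearest to Ifih1 among 8020 genes was the interferon-induced gene Ifi44 (0.36 log2 units per library). Aim2 lay nearest to Casp8, a protease of cell death (0.16). Ddx58 lay nearest to Med13l (0.23), Dhx58 to Rpl15 (0.23), Mavs to Acox3 (0.20) and Eif2ak2 to Hsp90ab1 (0.17). Zbp1 lay nearest to Psmd7 (0.42), Tmem173 to M6pr (0.18) and Ifi204 to Evi2a (0.15). In no case was another member the nearest gene, although some members lay close: 0.237% of the genes were nearer to Aim2 than Eif2ak2 was, and 1.01% nearer to Tmem173 than Ifi204.

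Markers of other cells also varied over the libraries, and their part in the results was not tested. The 8 neutrophil markers summed to 6.41 to 961 FPKM in FFC and 193 to 2465 FPKM in FF, with Ly6g at 0 in FFC 1 and in all FF libraries. In FFC 2 to FFC 4 Ly6g had 16.8, 132 and 60.8 FPKM. The markers of this list disagreed: S100a8 and Camp were at 0 in FFC 4, while S100a8 was at 975 FPKM in FF 1. Their sum therefore does not settle how much neutrophil RNA a library held. Border macrophage markers (6) summed to 102 to 1045 FPKM in FFC and 365 to 1142 FPKM in FF, with none at 0, and the 5 monocyte markers with values to 13.3 to 62.1 FPKM and 8.30 to 68.9 FPKM. T cell markers (7) summed to 15.9 to 51.6 FPKM in FFC and 23.3 to 149 FPKM in FF. Astrocyte (8), oligodendrocyte (6) and endothelial (5) markers summed to 91.6 to 188, 10.3 to 50.5 and 4.50 to 16.0 FPKM in FFC, and to 114 to 320.2, 11.7 to 41.8 and 15.0 to 43.6 FPKM in FF. The astrocyte list was uneven. Gfap stayed at or below 0.310 FPKM in FFC and 1.03 FPKM in FF, while Slc1a3 had 85.8 to 182 FPKM in FFC and 49.7 to 192 FPKM in FF. Clu, singled out after its values were seen, had 0.887, 1.84, 3.45 and 0.0124 FPKM in FFC 1 to FFC 4, and 127, 36.3, 23.4 and 61.9 FPKM in FF 1 to FF 4. It was thus lower in every FFC library, without overlap (1.29% of all tested genes), by a log2 difference of -4.55 ± 0.80 (SE; limma adjusted p = 0.382). Defining markers at 0 in part of the libraries included Gfap and Aldh1l1 (astrocytes), Mog (oligodendrocytes), S100a8 and Camp (neutrophils), Ly6c2 (monocytes), Cd3d and Cd3g (T cells) and Cldn5 (endothelium).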

How the data were processed

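RNA of flow-sorted microglia was amplified and sequenced as paired ends, per the labels' protocols. The authors deposited 1 table of 37447 genes with an FPKM value for each library. Per the submitters' processing notes, the genome build was mm9 and the tools included Cufflinks 2.0.2, TopHat2 2.0.4, Bowtie2 2.0.0 and CASAVA 1.8.2, with no role stated. Annotation and counting mode were not given in the sources used here. As FPKM holds no counts, no counting interval can be given.

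Genes with a missing value (447) were left out. Values entered as log2(FPKM + 1) for the 17753 genes that averaged 1 FPKM or more. Genotype, sex with genotype as a covariate, and their interaction were tested with limma 3.58.1 in R 4.3.3 (two-sided, empirical Bayes with trend, p adjusted over all genes by Benjamini-Hochberg, threshold 0.05), after tests on simulated data. Single genes also had exact two-sided permutation tests over 70 arrangements. Python 3.11.15, numpy 2.4.6, pandas 2.3.3 and scipy 1.17.1 did the rest, with figures by matplotlib 3.10.9. Positions are those of the table, whose starts count from 0 (21397 genes then match the length in GENCODE M21, and 419 otherwise), printed from 1. No 2 libraries were identical.

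The members and gene lists were chosen with earlier results of these data known. Named were all 9 members, the nearest gene to each, and from each list up to 4 genes without overlap by smallest unadjusted p; others are marked as chosen after their values were seen. Alternatives were other pseudocounts, filters, scalings, variance models and covariates, a replicate block, and leaving out libraries. Some marker and motif results are not reported here.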

Additional observations from a re-analysis of the deposited data

How the results depend on the processing

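The members' direction held in every alternative run except for Mavs without FF 2 and FF 4 (-0.017) and Eif2ak2 relative to the microglia marker mean (-0.059), and no member was called in any. That scaling, added after the data were seen, moves every gene's difference by the same amount, to a median of -0.30 for all genes and 0.45 for the members. For Mavs, leaving out FF 2 alone gave 0.03 and leaving out FF 4 alone gave 0.73. Why its FF 2 value was low was not tested. The members' median ranged from 0.93 to 1.15 when 1 library was left out. The median of all genes was 0.19 as reported, and 0.03 to 0.07 after upper-quartile, equal-sum or quantile scaling, where the members' medians were 0.71, 0.73 and 0.80. The number of members without overlap was 0 relative to the marker mean (1.12% of all genes) and 1 to 4 with 1 library left out. Ddx58 had to be among the latter, because leaving out a library cannot undo a lack of overlap. Where other members joined it, 4.5% to 6.72% of all genes were higher without overlap, against 3.05% with all libraries. Over all genes, 0 to 1 were called with 1 library left out, Mir15a without FF 1 and SNORA65 without FFC 4 (2 names chosen with their values in view). The interaction of genotype and sex gave 6 calls without the filter on low values. Same-numbered libraries did not deviate together (correlations from -0.05 to 0.03), and 1 of 4 FFC libraries was most like the FF library of its own number. These values gave no sign that the numbers pair the libraries, but they cannot exclude it. The replicate block gave 0 called genes and the same median of 0.94, with 1014 genes at an unadjusted p of 0.05 against 1146. Depth is unknown, so low values carry an error that cannot be stated.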
